A study of Arabidopsis thaliana with 15 samples.

Results

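Transcript levels at 4 h and at 2 h after the start of GR24 4DO treatment were compared in whole Arabidopsis thaliana seedlings. The comparison used 6 of the 15 RNA-seq libraries of the series, chosen by their labels for treatment and time: 3 from GR24 4DO at 4 h and 3 from GR24 4DO at 2 h. All seedlings were wild type of the Col ecotype, 10 days old, had grown on agar plates in long days, and had spent 2 h in liquid medium before treatment. The compound, GR24 4DO at 5 µM, is the form of the synthetic strigolactone GR24 that carries the configuration of 4-deoxyorobanchol, a natural strigolactone. The 6 libraries of solvent-treated seedlings at 4 h and at 2 h, 3 for each time, covered the same interval and served for comparison, and 3 further solvent libraries came from 0 h. The labels give neither the hour of day nor the lighting at sampling, so the length of treatment, the time since transfer to liquid medium and the time of day cannot be told apart within the treated seedlings. Nothing says that replicates came from separate cultures, so p-values measure the spread between these libraries, which may be technical.

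Strigolactones are carotenoid-derived hormones of plants. They are perceived by the receptor D14, which acts with the F-box protein MAX2 to mark the repressors SMXL6, SMXL7 and SMXL8 for destruction. The related receptor KAI2 uses MAX2 to remove SMAX1 and SMXL2 in karrikin signalling. Many other seedling transcripts cycle through the day under the circadian clock, a set of transcription factors that repress one another in turn. Light-harvesting, cold and flavonoid genes are among those known to follow it.

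The treated libraries held 26.4, 30.5 and 36.9 M reads in genes at 4 h and 24.8, 26.1 and 25.1 M at 2 h, and the 15 libraries ranged from 24.4 to 37.4 M reads. Levels are RPKM, that is, reads divided by gene length in kilobases and by library size, and values written with ± are the mean and SD of 3 libraries. Every difference or change is one of log2(RPKM + 1), 4 h minus 2 h unless said otherwise, a scale on which the changes of low genes look smaller. Of 32678 named genes, 18834 (57.6%) reached 1 RPKM in at least 3 of the 6 treated libraries and were tested with limma. Replicates 1 and 2 of GR24 4DO at 4 h were close to each other, with a chi-square of their reads of 1.87 per degree of freedom, as were replicates 1 and 3 of solvent at 4 h (1.13) and replicates 2 and 3 of solvent at 2 h (1.74). The other 12 replicate pairs lay between 3.82 and 19.23. Near-identical pairs, or pairs averaged, below refers to these 3, with each pair counted as 1 library. On the first principal component of the 6 treated libraries, which held 62.7% of their variance, the 4 h libraries lay between -23.3 and -11.3 and the 2 h libraries between 11.6 and 22.

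From 2 to 4 h with GR24 4DO, most of the genes called in the light-harvesting, cold, clock and sugar starvation lists fell, and most of those called in the flavonoid and wall-loosening lists rose. In total 3585 genes (19% of those tested) differed at an adjusted p under 0.05, 1537 higher at 4 h (8.16%) and 2048 lower (10.9%). Most changes were small. The median size of a called log2 difference was 0.357, and 92 genes (0.488%) were both called and changed at least 2-fold, 27 higher (0.143%) and 65 lower (0.345%). The median over all genes tested was -0.039. With the 3 near-identical pairs averaged, 880 genes were higher and 1132 lower, and 2010 of these were among the 3585. The count of calls was 2303 without replicate 1 and 2235 without replicate 3 of GR24 4DO at 4 h, and 2221 without replicate 2 and 2330 without replicate 3 of GR24 4DO at 2 h. In 7760 genes (41.2%) the 3 libraries of 4 h lay wholly on one side of the 3 of 2 h. In whole seedlings fewer cells of a type and less RNA per cell cannot be told apart.

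**Figure D1:**
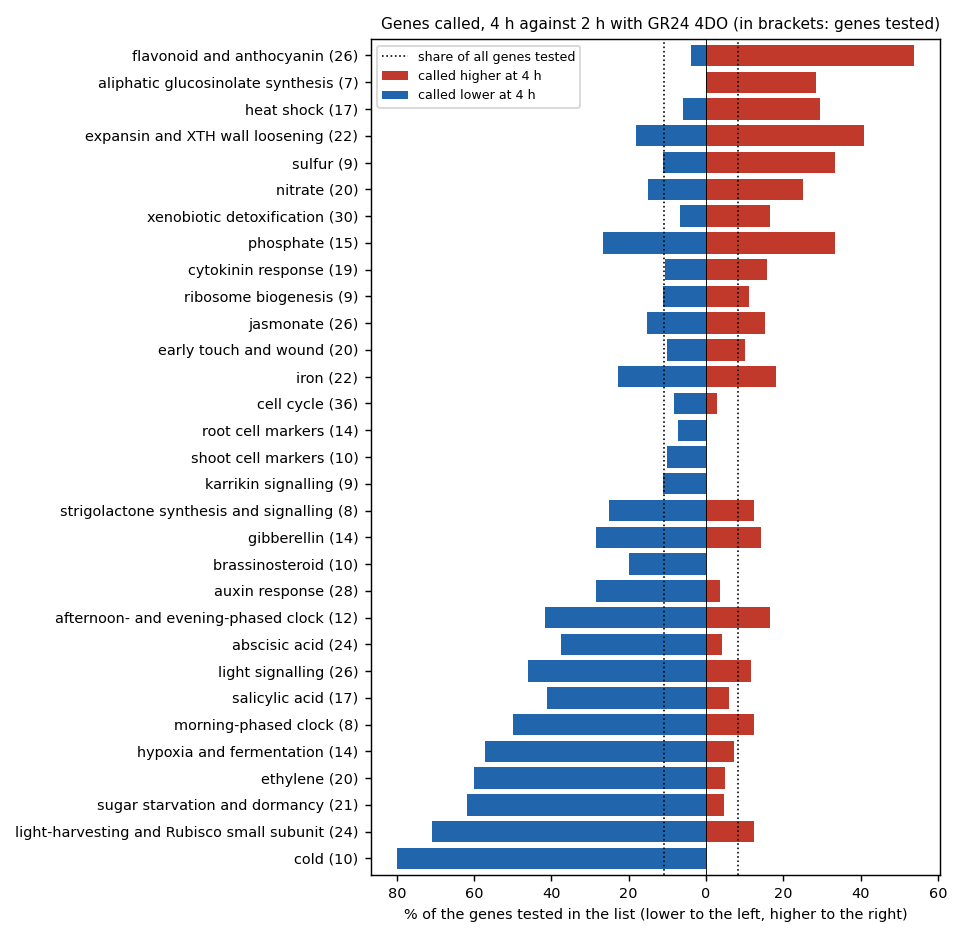
Share of the tested genes of each list that were called higher (right) or lower (left) at 4 h than at 2 h with GR24 4DO, in % of the genes tested, with the number tested in brackets. Dotted lines mark the shares over all 18834 genes, 8.16% higher and 10.9% lower; the cold and light-harvesting lists reach farthest to the left and the flavonoid list farthest to the right.

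Much of this change was also measured in seedlings that received solvent. From 2 to 4 h in solvent, 4045 genes (21.5%) were called, 2255 higher (12%) and 1790 lower (9.5%). The balance depended on the scaling: after quantile normalization 1958 were higher and 1996 lower in solvent, and 1857 higher and 1798 lower with GR24 4DO. Of the genes called with GR24 4DO, 1965 were called in the same direction in solvent, 971 higher and 994 lower in both. These are 54.8% of the GR24 4DO calls and 48.6% of the solvent calls, while 53 genes were called in opposite directions. Without replicate 1 or 3 of solvent at 4 h, the solvent calls were 1472 or 1494 higher and 1088 or 1145 lower. Across the 18834 genes the log2 changes with GR24 4DO and in solvent, which share no library, had a Pearson r of 0.714 and a Spearman rho of 0.676; genes are not independent replicates, so this is a description. A further 1567 genes were called with GR24 4DO and not in solvent, which by itself does not show that their changes differed.

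The difference between both changes was tested directly. It was called for 329 genes (1.75%), 185 with a more positive change with GR24 4DO (0.982%) and 144 with a more negative one (0.765%). Of the 3585 genes called with GR24 4DO, 201 (5.61%) were among them, and of the 1567 genes not called in solvent, 107. In 87 genes that rose, the change was more positive than in solvent, and in 90 genes that fell it was more negative. In 20 genes that fell, the change was less negative than in solvent, and in 4 that rose it was less positive. With the near-identical pairs averaged, 29 genes had a more positive and 22 a more negative change. The counts were 117 and 82 without replicate 1 and 127 and 91 without replicate 2 of GR24 4DO at 4 h, 121 and 92 without replicate 2 and 122 and 88 without replicate 3 of GR24 4DO at 2 h, and 123 and 89 without replicate 1 and 120 and 83 without replicate 3 of solvent at 4 h.

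**Figure D2:**
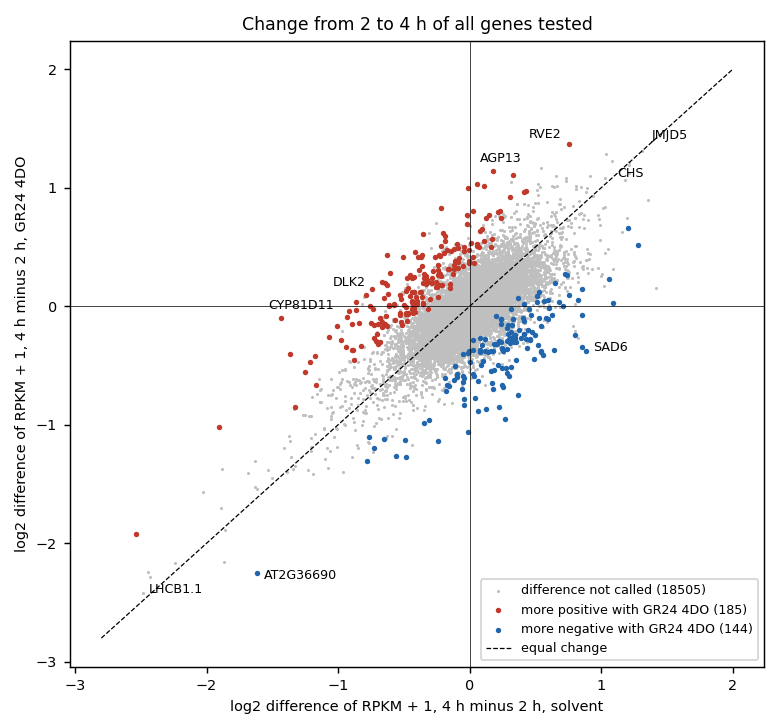
Each point is 1 of the 18834 genes tested, with its log2 difference of RPKM + 1 between 4 h and 2 h in solvent on the horizontal axis and with GR24 4DO on the vertical axis. Red points mark the 185 genes with a more positive and blue points the 144 with a more negative change with GR24 4DO; most genes lie along the dashed line of equal change, LHCB1.1, CHS and JMJD5 among them.

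Among the genes of the strigolactone list that passed the filter, D14, AT5G06570 and MAX1 were called, each in the same direction in both treatments. D14, which encodes the receptor, had 33.9, 34.1 and 36.3 RPKM at 4 h, against 60.1, 52.5 and 58.1 RPKM at 2 h with GR24 4DO. All libraries of 4 h lay below all of 2 h, and the log2 difference was -0.69 (SE 0.07, adjusted p = 2.26e-06). In solvent D14 fell as well (-0.73), and the difference between the changes was not called (0.03, adjusted p = 0.957). AT5G06570, annotated as an alpha/beta-hydrolase, fell to 20.5 ± 1.73 RPKM at 4 h, against 38.1 ± 0.798 RPKM at 2 h (log2 difference -0.87, adjusted p = 2.57e-06; SD, n = 3 and 3). MAX1, whose cytochrome P450 acts in strigolactone synthesis, rose to 15.3 ± 0.578 RPKM at 4 h, against 11.5 ± 0.397 RPKM at 2 h (log2 difference 0.38, adjusted p = 0.00197). Both also changed in the same direction in solvent, by -0.69 and 0.42. In the list of strigolactone synthesis and signalling, 1 of 8 genes tested rose and 2 fell, and the median difference over the 8 was -0.07. The share called was 37.5%, beside 19% over all genes, and in solvent 2 of the 8 rose and 3 fell.

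Transcripts of the repressors SMXL6, SMXL7 and SMXL8 were not called with GR24 4DO. SMXL7 had 16.9, 17.796 and 15.8 RPKM at 4 h and 18.3, 21.1 and 19.6 RPKM at 2 h with GR24 4DO, with no overlap, and its log2 difference of -0.21 had a 95% interval of -0.40 to -0.03 and an adjusted p of 0.0996. The intervals, not adjusted for the number of genes, were -0.25 to 0.20 for SMXL6 and -0.06 to 0.34 for SMXL8, around differences of -0.03 and 0.14. MAX2 had 15.7 ± 1.64 RPKM at 4 h and 17.0 ± 1.16 RPKM at 2 h (interval -0.27 to 0.06), and LBO, whose enzyme acts late in synthesis, 3.07 ± 0.12 RPKM at 4 h and 2.82 ± 0.343 RPKM at 2 h (interval -0.08 to 0.27). None of these 5 genes passed the test with GR24 4DO, and changes as large as the bounds given remain possible for each. In solvent SMXL7 fell (-0.32, limma adjusted p = 0.015) and LBO rose (0.36, 0.00484), while SMXL6, SMXL8 and MAX2 were not called. The difference between the changes was not called for any of the 5, with adjusted p of 0.86 for SMXL7 and 0.383 for LBO.

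The other 4 members of the strigolactone list, BRC1, CCD7, CCD8 and D27, lay below the filter. D27, which encodes an isomerase early in synthesis, had 24, 32 and 27 reads at 4 h and 7, 12 and 8 reads at 2 h with GR24 4DO, that is 0.849, 0.979 and 0.682 RPKM at 4 h and 0.263, 0.429 and 0.297 RPKM at 2 h. CCD8, whose dioxygenase acts after it, had 25, 31 and 43 reads at 4 h and 47, 42 and 51 reads at 2 h, that is 0.47, 0.504 and 0.577 RPKM at 4 h and 0.938, 0.798 and 1.01 RPKM at 2 h. Both genes had groups that did not overlap, with D27 higher and CCD8 lower at 4 h. BRC1, a transcription factor gene that holds back bud outgrowth, had 8, 10 and 12 reads at 4 h and 5, 6 and 5 reads at 2 h. Its levels were 0.187, 0.202 and 0.2 RPKM at 4 h and 0.124, 0.142 and 0.123 RPKM at 2 h. When all genes above 0 were tested, limma called D27 (log2 difference 0.465, adjusted p = 0.0103), CCD8 (-0.335, 0.00392) and BRC1 (0.083, 0.0197). In that fit the difference from the change in solvent was not called for D27 (adjusted p = 0.335), CCD8 (0.784) or BRC1 (0.552). The levels of BRC1 lay near 0.08 to 0.123 RPKM, the level of 3 reads in 1 kb. On log2(RPKM + 1) the spread between libraries is also small at such levels. The call of BRC1 is therefore not taken as a rise.

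Of the 9 karrikin pathway genes tested, 0 rose and 1 fell, 11.1% called beside 19% over all genes, and the median difference was -0.01. The 1 gene called was SMAX1, at 80.8 ± 1.23 RPKM at 4 h and 94.5 ± 3.2 RPKM at 2 h with GR24 4DO (log2 difference -0.22, adjusted p = 0.017). That call ended with the near-identical pairs averaged (0.0867), with each library's trend with gene length removed (0.156, log2 difference -0.13), with median-of-ratios scaling (0.0881), and without replicate 1 of 4 h (0.0626) or replicate 3 of 2 h (0.0703). KAI2 had 54.7 ± 2.87 RPKM at 4 h and 49.0 ± 1.31 RPKM at 2 h (interval of the log2 difference 0.02 to 0.29, adjusted p = 0.102), and SMXL2 19.3 ± 0.827 RPKM at 4 h and 21.2 ± 0.581 RPKM at 2 h (interval -0.29 to 0.03). The intervals of SMXL3, SMXL4 and SMXL5, relatives of SMAX1 outside both pathways, were -0.22 to 0.20, -0.16 to 0.23 and -0.26 to 0.10. KUF1, an F-box gene, had 22.8 ± 3.26 RPKM at 4 h and 19.7 ± 0.695 RPKM at 2 h, and BBX20, a B-box factor gene, 30.1 ± 1.41 RPKM at 4 h and 31.6 ± 1.42 RPKM at 2 h, with intervals of 0.00 to 0.39 and -0.30 to 0.16. In solvent 1 of the 9 genes rose and 3 fell. SMAX1 changed there by -0.26 (limma adjusted p = 0.00536), SMXL2 by -0.42 (0.00113) and KUF1 by 0.32 (0.0238). The difference between the changes was not called for SMAX1 (0.04, adjusted p = 0.939), SMXL2 (0.289) or KUF1 (0.849).

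DLK2, a paralogue of the receptor genes, differed between the treatments in its course. It had 49.4, 48.3 and 54.0 RPKM at 4 h and 44.3, 44.9 and 48.0 RPKM at 2 h with GR24 4DO, a log2 difference of 0.14 that was not called (interval 0.01 to 0.28, adjusted p = 0.138). In solvent DLK2 fell to 14.4 ± 0.36 RPKM at 4 h, against 24.8 ± 1.75 RPKM at 2 h (log2 difference -0.74). The difference between the changes was 0.88 (adjusted p = 0.000119) and was called in each of the 25 alternatives that set no minimum change. KUOX1, the last karrikin list member, had 0 reads in 5 of the 6 treated libraries and 1 read in the other.

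**Figure D3:**
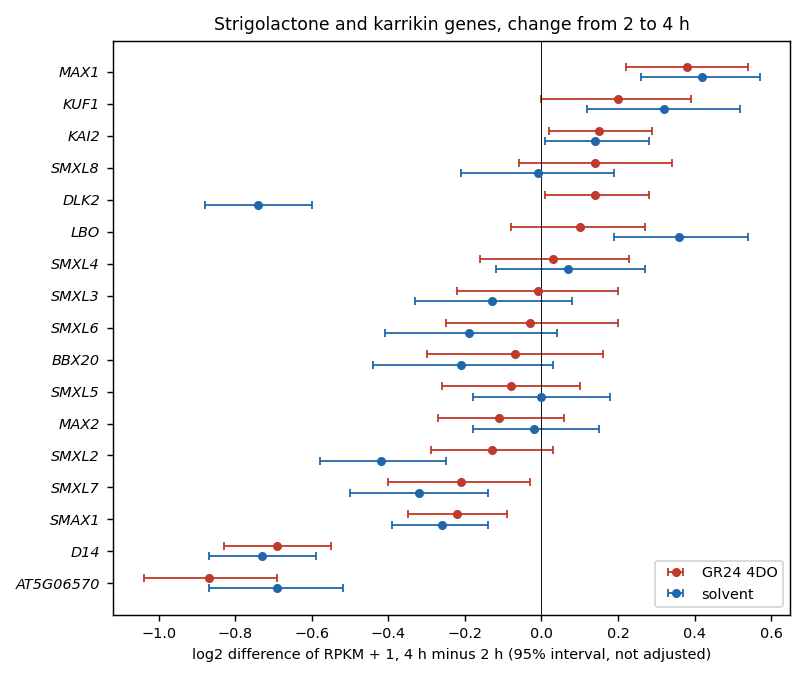
Log2 difference of RPKM + 1 between 4 h and 2 h for the 17 tested genes of the strigolactone and karrikin lists, with GR24 4DO (red) above solvent (blue); bars are 95% intervals, not adjusted for the number of genes. D14 and AT5G06570 lie to the left in both treatments and MAX1 to the right, while DLK2 lies near 0 with GR24 4DO and at -0.74 in solvent.

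Nuclear genes of the light-harvesting antenna supplied 5 of the 10 lowest differences among genes that reached 5 RPKM. The antenna consists of chlorophyll-binding proteins around the photosystems, and RBCS genes encode the small subunit of the carbon-fixing enzyme Rubisco. LHCB1.1 had 127, 128 and 143 RPKM at 4 h, against 793, 669.8 and 682 RPKM at 2 h with GR24 4DO, a log2 difference of -2.42 (SE 0.11, adjusted p = 2.59e-10). LHCB2.1 had 59.2, 56.4 and 63.3 RPKM at 4 h, against 321, 282 and 282 RPKM at 2 h, a log2 difference of -2.29. The highest 4 h library of each gene lay far below the lowest 2 h library. LHCB1.4 (-2.24), LHCB2.2 (-2.17) and LHCB2.3 (-1.92) were the other 3 of them, and LHCB3 fell to 273 ± 4.88 RPKM at 4 h, against 714 ± 29.9 RPKM at 2 h. Copies of LHCB1 and LHCB2 are nearly identical, so the split of reads between them is uncertain.

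Of 24 tested genes of the list, 17 fell and 3 rose, and the median difference was -0.79, beside -0.039 for all genes tested. With the near-identical pairs averaged, 16 fell and 3 rose. The 17 included 4 of the photosystem I antenna, LHCA1 (-1.20), LHCA2 (-0.64), LHCA3 (-0.63) and LHCA4 (-1.41). The 3 that rose were RBCS1B, at 1316, 1326 and 1443 RPKM at 4 h and 629, 674 and 725 RPKM at 2 h (1.01), LHCA6 (0.51) and LHCB4.3 (0.35). Of the 4 Rubisco genes in the list 1 rose, and RBCS1A, RBCS2B and RBCS3B were not called. In solvent, 19 of the 24 fell and 1 rose, with a median of -1.03. The change was less negative with GR24 4DO for LHCB2.3, which changed by -2.54 in solvent (difference 0.62, adjusted p = 0.00734), and more positive for LHCA6 (0.45) and LHCB4.3 (0.46). None of these 3 differences was called with the near-identical pairs averaged.

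The promoters of LHCB1.1 and LHCB1.4 are shown because each holds a CCA1-binding site, known from promoters of this family. Here and below a promoter is the 300 bases before the annotated gene start in the RefSeq annotation of TAIR10.1, printed 5′ to 3′ on the gene's strand. Capitals mark matches, on either strand, to the evening element AAAATATCT, the CCA1-binding site AAAAATCT, the G-box CACGTG, the I-box GATAAG and the DRE core CCGAC, none of which holds another. LHCB1.1 lies on the minus strand (chr1:10475970-10476269) and LHCB1.4 on the plus strand (chr2:14524307-14524606).
LHCB1.1: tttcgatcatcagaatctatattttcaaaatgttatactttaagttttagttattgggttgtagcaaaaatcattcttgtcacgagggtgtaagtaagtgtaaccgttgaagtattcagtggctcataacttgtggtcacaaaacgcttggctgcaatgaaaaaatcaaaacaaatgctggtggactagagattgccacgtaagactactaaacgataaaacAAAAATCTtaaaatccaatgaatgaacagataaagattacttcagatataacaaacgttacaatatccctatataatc
LHCB1.4: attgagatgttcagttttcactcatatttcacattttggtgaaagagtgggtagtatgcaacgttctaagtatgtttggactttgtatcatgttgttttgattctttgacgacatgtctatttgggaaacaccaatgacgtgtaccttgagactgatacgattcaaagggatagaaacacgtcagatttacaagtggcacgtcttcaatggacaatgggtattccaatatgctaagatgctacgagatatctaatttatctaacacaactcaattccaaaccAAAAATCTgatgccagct

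Among the 17 light-harvesting genes that fell, 3 held a CCA1-binding site, 4 a G-box and 4 an I-box. Among 18737 tested genes with a promoter of this length, the shares were 7.93%, 7.76% and 14.6%. These are matches of letters in 1 window and say nothing of whether a factor binds.

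Clock transcripts moved in both directions, with a majority of the calls lower. Of 8 tested genes of the morning-phased list, 4 fell and 1 rose (median -0.37), and of 12 of the afternoon- and evening-phased list, 5 fell and 2 rose (median -0.08). LNK4, of a family of clock coactivators, had 1.58, 2.04 and 1.9 RPKM at 4 h, against 9.21, 7.99 and 7.5 RPKM at 2 h with GR24 4DO (-1.70, adjusted p = 1.51e-09). Its relatives LNK1 and LNK2 fell to 2.43 ± 0.105 and 1.01 ± 0.065 RPKM at 4 h, against 5.77 ± 0.525 and 4.21 ± 0.628 RPKM at 2 h. The difference of LNK2, which had about 1 RPKM at 4 h, was -1.37, and -2.06 with limma-voom. RVE7, a MYB gene of the same family as RVE2, changed by -0.63. CCA1 and LHY, the central morning factors, lay below the filter. CCA1 had 0.113, 0.238 and 0.0462 RPKM at 4 h and 0.241, 0.442 and 0.56 RPKM at 2 h, and LHY 0.164, 0.071 and 0.134 RPKM at 4 h and 0.224, 0.19 and 0.32 RPKM at 2 h.

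RVE2, a MYB factor gene, went the other way and had the highest log2 difference among genes that reached 5 RPKM. It had 19.0, 20.8 and 19.0 RPKM at 4 h, against 6.21, 7.36 and 7.35 RPKM at 2 h with GR24 4DO (1.37, SE 0.08, adjusted p = 1.08e-08). In solvent RVE2 rose to 14.3 ± 0.706 RPKM at 4 h, against 8.11 ± 0.604 RPKM at 2 h. The change was more positive with GR24 4DO by 0.62 (adjusted p = 0.0102), a difference that was not called with the near-identical pairs averaged (0.139). JMJD5, which encodes a clock-linked jumonji protein, had 46.5, 45.4 and 50.5 RPKM at 4 h and 18.198, 18.6 and 18.8 RPKM at 2 h (1.31). Its change in solvent was 1.31 too.

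Among afternoon and evening genes, those that fell included 2 of pseudo-response regulators, which repress the morning genes. PRR5 had 11.5, 11.6 and 11.1 RPKM at 4 h, against 21.7, 22.7 and 22.9 RPKM at 2 h (-0.92, adjusted p = 3.62e-07), and PRR7 fell to 5.15 ± 0.692 RPKM at 4 h, against 13.9 ± 2.52 RPKM at 2 h (-1.27). GI, a large protein that links the clock to flowering, fell to 21.2 ± 0.0682 RPKM at 4 h, against 38.9 ± 1.42 RPKM at 2 h (-0.84). FKF1 (-0.54) and LUX (-0.18) completed the 5. The 2 that rose, ELF4 (122 ± 3.73 RPKM at 4 h, 84.2 ± 5.58 RPKM at 2 h, 0.53) and BOA (0.45), encode parts of the evening complex or a close relative of them. TOC1, ELF3, ZTL, CHE and PRR3 were not called. In solvent 6 of the 12 fell and 2 rose, and no difference between the changes was called in this list.

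The promoter of PRR5 (chr5:8358547-8358846, minus strand) is shown because it holds 2 evening elements, besides 1 CCA1-binding site and 1 DRE core.
PRR5: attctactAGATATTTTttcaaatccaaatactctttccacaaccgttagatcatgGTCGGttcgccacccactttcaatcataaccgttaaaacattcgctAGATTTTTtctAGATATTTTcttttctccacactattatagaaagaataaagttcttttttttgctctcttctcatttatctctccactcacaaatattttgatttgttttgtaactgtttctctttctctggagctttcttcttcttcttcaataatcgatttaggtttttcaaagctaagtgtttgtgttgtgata
The evening element occurred in 5 of the 12 tested evening-list promoters (41.7%), 3 of the 5 that fell and 1 of the 2 that rose, and in 2.91% of all tested genes. Over all genes called, it was in 4.56% of 2039 promoters of genes that fell and 2.54% of 1533 of genes that rose.

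Of 26 light signalling genes tested, 12 fell and 3 rose (median -0.19; 11 and 3 with the pairs averaged). PIF4 and PIF5, transcription factors that promote elongation in shade and darkness, fell to 10.6 ± 0.217 and 18.3 ± 0.465 RPKM at 4 h, against 22.8 ± 0.997 and 36.8 ± 0.303 RPKM at 2 h with GR24 4DO (log2 differences -1.03 and -0.97). PIF3 and PIF7 were among the 12, as were the photoreceptor genes PHYA, CRY1 and CRY2 and the B-box genes BBX22 (-0.50), BBX24 and BBX25 (-0.78). The 3 that rose were HY5 (0.53) and HYH (0.53), which encode factors that promote light responses, and ELIP2 (0.49), of the early light-induced proteins. In solvent 13 fell and 2 rose, and no difference between the changes was called in this list.

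**Figure D4:**
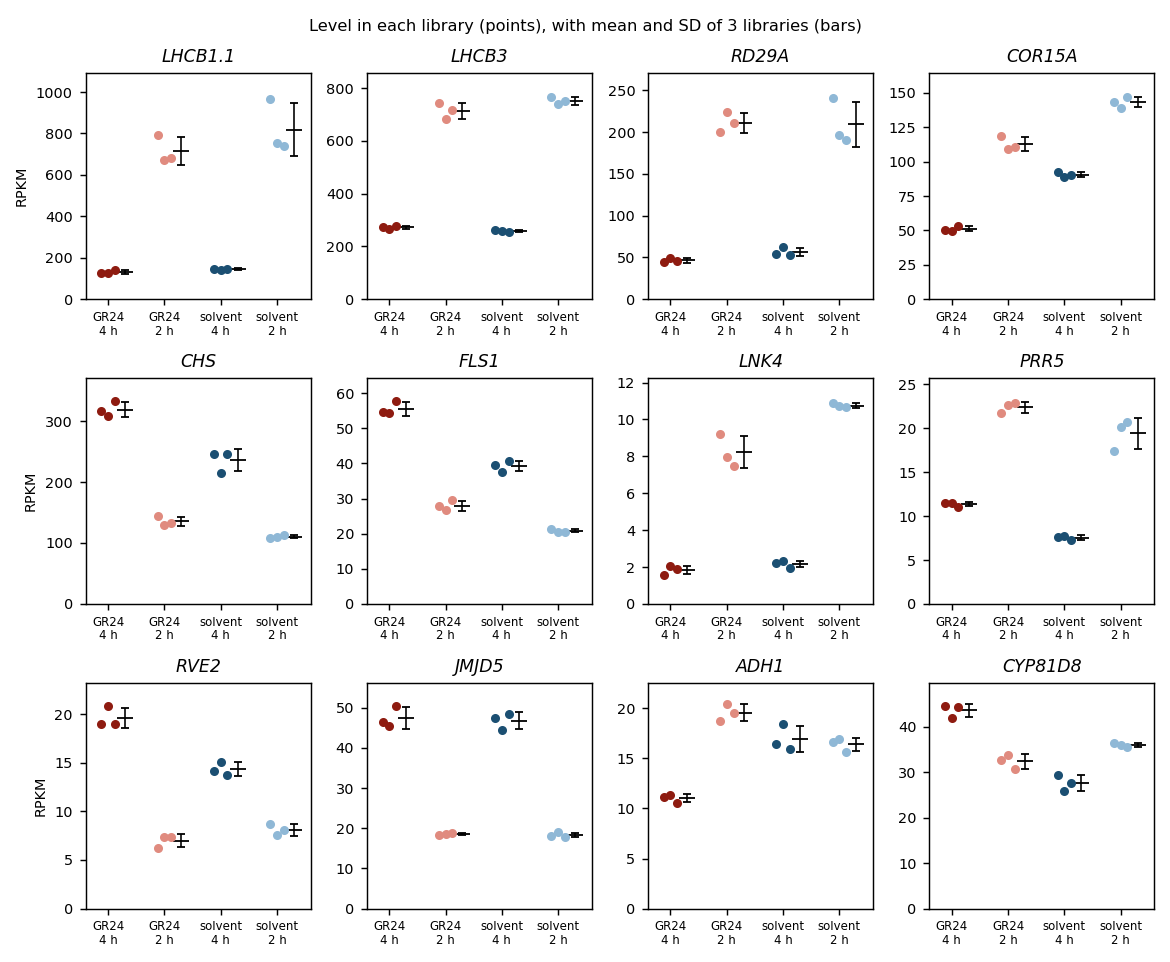
RPKM in each library (points) for 12 genes, with the mean and SD of the 3 libraries of a group as a bar beside them; from left to right the groups are GR24 4DO at 4 h, GR24 4DO at 2 h, solvent at 4 h and solvent at 2 h. LHCB1.1, LHCB3, RD29A, LNK4 and PRR5 are lower at 4 h in both treatments, CHS, FLS1, RVE2 and JMJD5 higher in both, and ADH1 and CYP81D8 changed differently with GR24 4DO than in solvent.

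Cold-responsive transcripts fell in 8 of 10 tested genes and rose in 0, the median difference was -0.72, and the 8 calls held with the near-identical pairs averaged. RD29A, a classic target of the cold and drought factors, was in the abscisic acid list and not among these 10. It had 44.5, 49.5 and 45.4 RPKM at 4 h, against 199.5, 224 and 211 RPKM at 2 h with GR24 4DO (-2.16, SE 0.09, adjusted p = 1.82e-10). Within the cold list, COR47 and ERD10, which encode dehydrins, fell to 271 ± 29.1 and 142 ± 11.2 RPKM at 4 h, against 716 ± 82.1 and 348 ± 41.9 RPKM at 2 h (-1.40 and -1.29). GOLS3, whose enzyme makes galactinol, fell to 0.524 ± 0.136 RPKM at 4 h, against 2.89 ± 0.408 RPKM at 2 h (-1.35, and -2.28 with a pseudocount of 0.1 RPKM). COR15B, KIN1, COR6.6 and COR414-TM1 changed by -0.60, -0.53, -0.52 and -0.83.

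COR15A, which encodes a chloroplast protein that protects membranes during freezing, fell farther with GR24 4DO than in solvent. It had 50.3, 49.97 and 53.5 RPKM at 4 h, against 119, 109 and 110.4 RPKM at 2 h with GR24 4DO (-1.12), and in solvent 90.7 ± 2.04 RPKM at 4 h, against 143 ± 3.9 RPKM at 2 h (-0.66). The difference between the changes was -0.47 (adjusted p = 0.00277; 0.0991 with the near-identical pairs averaged). It was the 1 such call in the cold list, of which 7 of 10 genes fell in solvent. CBF2 and CBF3, which encode the factors that bind the DRE, lay below the filter, with 0.155 ± 0.0302 and 0.426 ± 0.16 RPKM at 4 h and 0.601 ± 0.139 and 0.9 ± 0.146 RPKM at 2 h.

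The promoters of RD29A (chr5:21240417-21240716, plus strand) and COR15A (chr2:17712331-17712630, minus strand) are shown because both hold the DRE core, 3 and 2 times, and COR15A also a G-box and an I-box.
RD29A: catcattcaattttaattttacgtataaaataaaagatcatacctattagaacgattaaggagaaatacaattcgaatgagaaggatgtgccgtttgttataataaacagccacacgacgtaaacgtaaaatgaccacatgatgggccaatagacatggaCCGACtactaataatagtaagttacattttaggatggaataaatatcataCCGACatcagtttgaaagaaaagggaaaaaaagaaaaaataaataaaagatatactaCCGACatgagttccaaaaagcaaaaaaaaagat
COR15A: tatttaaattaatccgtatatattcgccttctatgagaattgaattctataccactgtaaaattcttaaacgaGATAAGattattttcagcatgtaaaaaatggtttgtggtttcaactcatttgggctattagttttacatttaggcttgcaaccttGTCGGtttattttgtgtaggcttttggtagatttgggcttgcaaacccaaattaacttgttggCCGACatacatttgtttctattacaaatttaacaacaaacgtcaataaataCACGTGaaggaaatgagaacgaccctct
The DRE core was found in 4 of the 8 genes of the cold list that fell (50%), COR15A, COR15B, COR414-TM1 and GOLS3, and in 14.9% of all tested genes, and the G-box in 3 of the 8 (37.5%). COR15A and COR15B are neighbours, as are KIN1 and COR6.6, so these promoters are not all independent.

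Among abscisic acid genes, 9 of 24 tested fell and 1 rose (median -0.19), and 7 and 0 with the pairs averaged. The solvent counts were 8 lower and 1 higher (median -0.07). The change was more positive with GR24 4DO for 1 gene of the list, and for 0 with the pairs averaged. Apart from RD29A, which is also induced by this hormone, PYL5 and PYL6, which encode receptors, fell to 76.5 ± 4.43 and 36.0 ± 2.36 RPKM at 4 h, against 109 ± 10.3 and 58.0 ± 4.75 RPKM at 2 h. The transcription factor genes ABF1 and ABI5 changed by -0.65 and -0.53, and CYP707A3, whose enzyme breaks the hormone down, by -0.46. The phosphatase gene HAI1 was the 1 that rose (0.32), a call lost without replicate 1 of 4 h or without replicate 2 or 3 of 2 h.

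Flavonoid and anthocyanin synthesis showed the most one-sided rise, with 14 of 26 tested genes higher and 1 lower (median 0.43, beside -0.039 for all genes; 13 and 1 with the pairs averaged). CHS, which encodes the first committed enzyme of the pathway, had 317, 308 and 332 RPKM at 4 h, against 144, 129.8 and 134 RPKM at 2 h with GR24 4DO (1.23, SE 0.06, adjusted p = 9.92e-10). FLS1, which encodes flavonol synthase, had 54.5, 54.4 and 57.7 RPKM at 4 h, against 27.9, 26.7 and 29.5 RPKM at 2 h (0.96, adjusted p = 1.2e-08). All 3 libraries of 4 h exceeded all 3 of 2 h in both genes. CHIL, which encodes a chalcone isomerase-like protein, rose to 37.8 ± 0.708 RPKM at 4 h, against 21.0 ± 0.446 RPKM at 2 h (0.82).

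Other genes of the pathway that rose were CHI (0.74), TT7 (0.77), DFR (0.61), LDOX (0.44), the transporter-like TT19 (0.57) and the glycosyltransferase genes UGT78D1 and UGT78D2 (0.44 and 0.44). F3H, whose enzyme acts between those of CHI and DFR, lay below the filter, with 0.0252, 0.0435 and 0 RPKM at 4 h and 0, 0 and 0 RPKM at 2 h. Whether reads of F3H were lost in mapping or counting was not tested. MYB75, an activator of anthocyanin genes, had 2.4 ± 0.148 RPKM at 4 h and 1.01 ± 0.046 RPKM at 2 h (0.76), while the flavonol regulators MYB12 and MYB111 were not called. The earlier phenylpropanoid genes PAL1, PAL2, C4H and 4CL1 were not called either. MYBL2, a repressor of anthocyanin synthesis, was the 1 gene that fell, to 10.9 ± 0.471 RPKM at 4 h, against 29.9 ± 2.96 RPKM at 2 h (-1.38). In solvent 10 of the 26 rose and 1 fell (median 0.19), and the difference between the changes was called for TT7 alone (0.62, adjusted p = 0.00699), and for none with the pairs averaged.

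The promoter of CHS (chr5:4488176-4488475, plus strand) is shown for its G-box, which 4 of the 14 flavonoid genes that rose held (28.6%), against 7.76% of all tested genes.
CHS: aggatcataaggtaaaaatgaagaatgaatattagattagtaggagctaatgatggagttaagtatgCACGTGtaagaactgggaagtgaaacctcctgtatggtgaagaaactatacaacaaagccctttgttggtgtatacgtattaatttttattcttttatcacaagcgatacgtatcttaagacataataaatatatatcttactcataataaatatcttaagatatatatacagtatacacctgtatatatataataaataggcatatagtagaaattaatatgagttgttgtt

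Sugar starvation and dormancy transcripts, which mark low carbon supply, fell in 13 of 21 tested genes and rose in 1 (median -0.38; 12 and 1 with the pairs averaged). GDH2, whose enzyme breaks down glutamate, had 105 ± 3.47 RPKM at 4 h, against 162 ± 0.632 RPKM at 2 h with GR24 4DO (-0.63), and TPS10, of the trehalose phosphate synthase family, 17.75 ± 0.211 RPKM at 4 h, against 27.7 ± 1.44 RPKM at 2 h (-0.61). The transcription factor gene bZIP63 changed by -0.75, SEN1 by -0.86 and the dormancy-associated genes DRM1 and DRM2 by -0.68 and -0.55. BT2, which encodes a BTB protein repressed by sugar, rose: it had 124, 124 and 111 RPKM at 4 h, against 69.9, 71.4 and 70.9 RPKM at 2 h (0.75).

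The fall was steeper in solvent for several of these genes. In solvent 16 of the 21 fell (median -0.62), and the change was more positive with GR24 4DO for 5 genes and more negative for 1. The 5 were ASN1 (0.74), DRM2 (0.69), BT2 (0.62), DIN10 (0.59) and MCCA (0.46), and the 1 was EXL1 (-0.42), which was not called without any 1 of 8 libraries. None of the 6 was called with the near-identical pairs averaged. SIP2, which encodes an enzyme that hydrolyses raffinose, lies outside the list and rose to 121, 121 and 115 RPKM at 4 h, against 84.3, 80.9 and 84.7 RPKM at 2 h, while in solvent it fell to 65.3 ± 1.1 RPKM at 4 h, against 76.0 ± 0.236 RPKM at 2 h (difference 0.73, adjusted p = 0.000284).

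Wall-loosening genes of the expansin and XTH families rose in 9 of 22 tested and fell in 4 (median 0.18; 8 and 3 with the pairs averaged). XTH31 rose to 198 ± 9.76 RPKM at 4 h, against 123 ± 3.51 RPKM at 2 h with GR24 4DO (0.68), EXPA15 to 96.2 ± 5.81 RPKM at 4 h, against 61.4 ± 2.67 RPKM at 2 h (0.64), and EXPA6 by 0.37. EXPA11 fell to 11.2, 10.97 and 12.4 RPKM at 4 h, against 17.3, 17.2 and 18.24 RPKM at 2 h (-0.57). Its change in solvent was 0.03 and not called, and the difference between the changes was -0.60 (adjusted p = 0.00273; 0.076 with the pairs averaged). XTH16 (-0.43) and XTH18 (-0.35) also had a more negative change with GR24 4DO, though not with the pairs averaged, and in solvent 10 of the 22 rose and 0 fell.

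Ethylene transcripts fell in 12 of 20 tested genes and rose in 1 (median -0.29). They fell in 9 with the near-identical pairs averaged, and in 7 without replicate 3 of 4 h or without replicate 2 or 3 of 2 h. ETR2, an ethylene receptor gene that ethylene itself induces, had 8.92, 9 and 8.95 RPKM at 4 h, against 13.5, 15.1 and 12.9 RPKM at 2 h with GR24 4DO (-0.57). ARGOS and ARL, which encode related proteins that promote organ growth and dampen ethylene response, fell to 14.3 ± 0.149 and 37.3 ± 0.891 RPKM at 4 h, against 23.1 ± 1.56 and 56.7 ± 4.34 RPKM at 2 h (-0.65 and -0.59). Others of the 12 encode the receptors ERS1 and EIN4, the kinase CTR1 and the synthesis enzyme ACS8. PDF1.2, a defensin gene induced by ethylene and jasmonate, was the 1 that rose (0.89).

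In solvent 4 ethylene genes fell and 1 rose. The difference between the changes was -0.82 for ARGOS (adjusted p = 0.000982), -0.62 for ARL (0.00866) and -0.47 for ETR2 (0.0196). In solvent ARGOS had 26.7 ± 1.02 RPKM at 4 h and 23.63 ± 2.09 RPKM at 2 h. The difference held for ARGOS with the near-identical pairs averaged and did not for ARL (0.0991) and ETR2 (0.257).

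Hypoxia and fermentation genes fell in 8 of 14 tested and rose in 1 (median -0.24), and fell in 4 and rose in 0 with the pairs averaged. The count that fell was 4 or 5 without replicate 1, 2 or 3 of 4 h or replicate 1 or 3 of 2 h. ADH1, which encodes alcohol dehydrogenase, had 11.1, 11.3 and 10.6 RPKM at 4 h, against 18.7, 20.4 and 19.5 RPKM at 2 h with GR24 4DO (-0.78, adjusted p = 7.48e-06). In solvent it had 17.0 ± 1.31 RPKM at 4 h and 16.4 ± 0.675 RPKM at 2 h, and the difference between the changes was -0.82 (adjusted p = 0.00137). SAD6, which encodes a stearoyl-ACP desaturase, fell to 5.79 ± 0.642 RPKM at 4 h, against 7.79 ± 0.241 RPKM at 2 h, while in solvent it rose to 10.06 ± 0.647 RPKM at 4 h, against 4.99 ± 0.461 RPKM at 2 h (difference -1.26, adjusted p = 8.02e-05). SAD6 moved in opposite directions in the treatments, and both differences held with the pairs averaged. HRE1, an ethylene response factor gene of low oxygen, changed by -1.005, and PDC1, whose enzyme precedes ADH1 in fermentation, by -0.32; HRE2 was the 1 that rose (0.42). HB1, a haemoglobin gene, had the third difference between the changes (-0.58), which was not called with the pairs averaged.

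Detoxification genes held more differences between the treatments than any other list examined, 13 of 30 tested. The lists were chosen with earlier results of these data known, so this rank is a description only. With GR24 4DO, 5 of 30 tested rose and 2 fell (median 0.03; 4 and 1 with the pairs averaged), and in solvent 4 rose and 15 fell (median -0.25). The share called with GR24 4DO was 23.3%, beside 19% over all genes. The change was more positive with GR24 4DO for 12 of the 30 and more negative for 1, and for 6 and 1 with the pairs averaged. Over all genes tested, 0.982% had a more positive and 0.765% a more negative change. CYP81D8, a cytochrome P450 gene, rose to 44.5, 41.8 and 44.5 RPKM at 4 h, against 32.7, 33.8 and 30.7 RPKM at 2 h with GR24 4DO (0.42), while in solvent it fell to 27.7 ± 1.76 RPKM at 4 h, against 36.0 ± 0.434 RPKM at 2 h (-0.37; difference 0.79, adjusted p = 0.000205). GSTU25, a glutathione S-transferase gene, rose to 43.7 ± 1.3 RPKM at 4 h, against 28.5 ± 0.76 RPKM at 2 h (0.60), and GSTU8 to 61.5 ± 0.842 RPKM at 4 h, against 43.5 ± 3.06 RPKM at 2 h (0.49). GSTF6, of the same enzyme family, changed by -0.51.

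Other members showed the difference through their fall in solvent. CYP81D11 had 24.9 ± 1.64 RPKM at 4 h and 26.7 ± 0.749 RPKM at 2 h with GR24 4DO, and in solvent 10.6 ± 0.765 RPKM at 4 h, against 30.2 ± 0.926 RPKM at 2 h (difference 1.33, adjusted p = 2.49e-06). OPR1, an oxophytodienoate reductase-family gene, had 162 ± 4.64 RPKM at 4 h and 182 ± 6.68 RPKM at 2 h with GR24 4DO, and in solvent 89.9 ± 3.37 RPKM at 4 h, against 182 ± 9.53 RPKM at 2 h (difference 0.84, adjusted p = 0.000162). With GR24 4DO neither gene was called. UGT73B2 and UGT73B1, glycosyltransferase genes outside the list, were higher at 4 h with GR24 4DO (0.20 and 0.24) and lower in solvent (-0.64 and -0.48; differences 0.84 and 0.71, adjusted p = 0.000158 and 0.000284). The differences of all 4 genes were called in each of the 25 alternatives, but the rise of UGT73B2 with GR24 4DO was not called with the pairs averaged (0.0933) or without 1 of several libraries, and that of UGT73B1 not without replicate 3 of 4 h (0.0569).

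**Figure D5:**
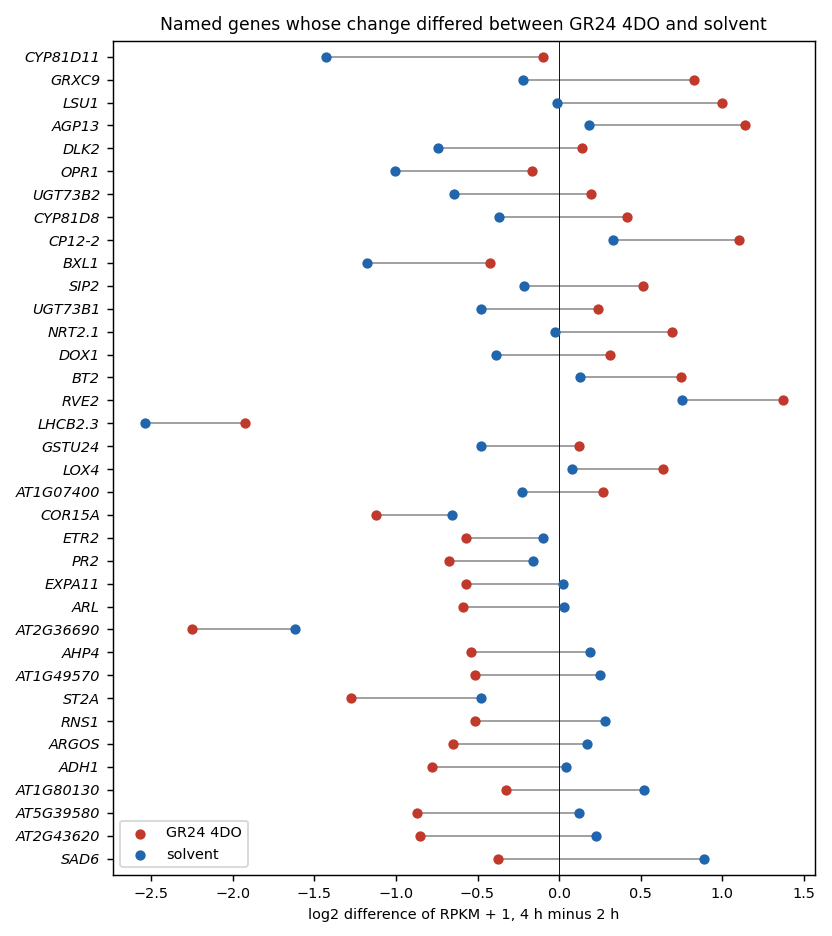
Log2 difference of RPKM + 1 between 4 h and 2 h with GR24 4DO (red) and in solvent (blue) for the 36 named genes whose 2 changes differed, ordered by the difference. In the upper genes, CYP81D11 and GRXC9 first, the change with GR24 4DO is the more positive one; in the lower genes, SAD6 last, it is the more negative one.

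Salicylic acid genes fell in 7 of 17 tested and rose in 1 (median -0.21; 4 and 1 with the pairs averaged), and in solvent 1 fell and 1 rose. They fell in 4 without replicate 1 or 3 of 4 h. PR2, which encodes a glucanase, fell to 11.8, 13.0 and 12.6 RPKM at 4 h, against 20.3, 21.2 and 20.02 RPKM at 2 h with GR24 4DO (-0.68; difference from solvent -0.52, adjusted p = 0.0127, 0.103 with the pairs averaged). ICS1, whose enzyme makes the hormone, changed by -0.43 and WRKY70, a defence regulator gene, by -0.45. GRXC9, a glutaredoxin gene, rose to 12.1, 10.7 and 12.6 RPKM at 4 h, against 7.05, 5.56 and 6.04 RPKM at 2 h (0.83), and its change in solvent was -0.22 (difference 1.05, adjusted p = 0.00648). Outside the lists, AT5G39580, a peroxidase gene, had 28.8, 29.4 and 27.9 RPKM at 4 h, against 51.6, 53.6 and 54.6 RPKM at 2 h (-0.87). In solvent it had 58.5 ± 1.01 RPKM at 4 h and 53.7 ± 4.53 RPKM at 2 h, and the difference between the changes was -0.99 (adjusted p = 2.81e-05).

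The peroxidase gene AT1G49570, the chitinase-family gene AT2G43620, AT1G80130 and the ribonuclease gene RNS1 shared this pattern. With GR24 4DO they changed by -0.52, -0.85, -0.33 and -0.52, and in solvent by 0.25, 0.22, 0.52 and 0.28. All 4 were lower at 4 h with GR24 4DO and higher in solvent. The differences of these 4 and of AT5G39580 were called in each of the 25 alternatives. DOX1, an alpha-dioxygenase gene of defence, was opposite, higher at 4 h with GR24 4DO (0.31) and lower in solvent (-0.39; difference 0.70, adjusted p = 0.000284). BXL1, a xylosidase gene of the cell wall, fell less with GR24 4DO (-0.42) than in solvent (-1.18; difference 0.75, adjusted p = 0.000894).

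Auxin response genes fell in 8 of 28 tested and rose in 1 (median -0.07), and 7 and 1 with the pairs averaged. The share called was 32.1%, beside 19% over all genes. The solvent counts were 9 lower and 0 higher (median -0.2), and no difference between the changes was called in this list. GH3.3, whose enzyme conjugates auxin, had 5.46, 5.5 and 5.6 RPKM at 4 h, against 16.5, 15.2 and 15.7 RPKM at 2 h with GR24 4DO (-1.36, adjusted p = 9.16e-10), and the auxin-induced repressor genes IAA19, IAA3 and IAA7 changed by -0.80, -0.47 and -0.45. Jasmonate genes rose in 4 and fell in 4 of 26 tested (median 0), 30.8% called beside 19% over all genes. The solvent counts were 5 higher and 6 lower. ST2A, whose enzyme sulfates hydroxyjasmonate, fell to 13.0, 12.9 and 14.5 RPKM at 4 h, against 36.2, 33.2 and 32.9 RPKM at 2 h (-1.28), farther than in solvent (-0.48; difference -0.79, adjusted p = 0.000613). CYP94C1, which also inactivates jasmonate, changed by -0.80, while the repressor gene JAZ8 and the lipoxygenase gene LOX4 rose by 0.79 and 0.63. The change of LOX4 was more positive than in solvent (0.56, adjusted p = 0.0245), but not with the pairs averaged (0.236) or without any 1 of 8 libraries (0.0502 to 0.079).

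Cytokinin genes rose in 3 and fell in 2 of 19 tested (median 0.01; 1 and 1 with the pairs averaged), beside 8.16% and 10.9% over all genes. ARR16, a response regulator gene, rose to 15.8, 15.8 and 15.1 RPKM at 4 h, against 8.69, 6.95 and 9.02 RPKM at 2 h (0.85), and the phosphotransfer gene AHP4 changed by -0.54, with a change in solvent of 0.19 (difference -0.73, adjusted p = 0.0154; 0.0875 with the pairs averaged and 0.052 without replicate 1 of GR24 4DO at 4 h). The smaller calls of ARR6 (-0.22) and ARR9 (0.27) ended with the pairs averaged (0.0782 and 0.0732). Gibberellin genes rose in 2 and fell in 4 of 14 tested (median -0.09), 42.9% called beside 19% over all genes, and 1 and 2 with the pairs averaged. The solvent counts were 1 higher and 5 lower, and no difference between the changes was called in this list. GA3OX2, whose enzyme makes active gibberellin, rose to 6.38, 6.78 and 6.78 RPKM at 4 h, against 2.57, 2.69 and 3.09 RPKM at 2 h (1.02), and GA2OX6, whose enzyme inactivates it, changed by -0.63. SCL3 changed by -0.35 and the receptor gene GID1C by -0.32, which was not called with the pairs averaged (0.0571). Of 10 brassinosteroid genes, BR6OX2 and CPD, both of synthesis, changed by -0.80 and -0.40 and 0 rose, 20% called beside 19% over all genes. The solvent counts were 2 higher and 3 lower. In the early touch and wound list 2 of 20 rose and 2 fell (1 and 1 with the pairs averaged), a share near the 8.16% and 10.9% over all genes. FRK1, a receptor kinase gene, changed by -0.94 and CML37, a calmodulin-like gene, rose by 0.68, whereas the calls of ERF109 and ERF5 (0.35 and -0.29) ended with the pairs averaged (0.103 and 0.0633).

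Among the largest changes were also genes of no list. THAS1 and CYP705A5, of the thalianol pathway, a set of clustered genes for root triterpenes, rose to 26.7, 27.5 and 25.4 RPKM and 55.6, 55.7 and 61.7 RPKM at 4 h, against 10.8, 10.5 and 11.2 RPKM and 26.0, 23.0 and 25.0 RPKM at 2 h with GR24 4DO (1.22 and 1.19). In solvent they rose by 1.21 and 1.21. AGP13, an arabinogalactan protein gene, rose to 20.3, 18.5 and 22.4 RPKM at 4 h, against 7.49, 9.62 and 9.12 RPKM at 2 h (1.14), and CP12-2, which encodes a regulator of carbon fixation, to 120.1, 125 and 115 RPKM at 4 h, against 54.5, 55.7 and 55.8 RPKM at 2 h (1.104). Both changed less in solvent, with differences of 0.96 and 0.77 (adjusted p = 0.00462 and 0.00462) that were not called with the pairs averaged (0.054 and 0.0596). AT5G38980, AT3G46880 and AT5G62140, whose roles are not given here, rose by 1.28, 1.12 and 1.102.

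AT2G36690, a gene of the 2-oxoglutarate oxygenase family, had the third lowest difference among genes that reached 5 RPKM. It had 2.34, 2.72 and 2.27 RPKM at 4 h, against 15.3, 15.2 and 15.5 RPKM at 2 h with GR24 4DO (-2.25), and 4.27 ± 0.405 RPKM at 4 h, against 15.2 ± 0.818 RPKM at 2 h in solvent. The difference between the changes was -0.63 (adjusted p = 0.00512) and was called in each of the 25 alternatives. CIPK20, a protein kinase gene, fell to 0.776, 1.2 and 0.537 RPKM at 4 h, against 5.13, 7.21 and 5.04 RPKM at 2 h (-1.89, and -2.86 with limma-voom), and AT5G43520, which encodes a cysteine- and histidine-rich protein, changed by -1.56.

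Few markers of root and shoot cells were called with GR24 4DO, 7.14% and 10% of those tested beside 19% over all genes. Of 14 root markers tested, 0 rose and 1 fell, WOX5 at 1.1 ± 0.148 RPKM at 4 h and 1.8 ± 0.312 RPKM at 2 h (-0.41), a call that ended without any 1 of 4 treated libraries (0.0506 to 0.063). The 14 root markers summed to 179 to 192.6 RPKM in the 4 h libraries and 170.2 to 178.3 RPKM in the 2 h libraries with GR24 4DO. Of 10 shoot markers tested, 0 rose and 1 fell, the stomatal lineage gene SPCH (-0.51). The 12 shoot markers summed to 211.3 to 221 RPKM in the 4 h libraries and 222.9 to 227.9 RPKM in the 2 h libraries, and 1 of them was at 0 in all libraries of 4 h. These sums with GR24 4DO did not overlap between the times, which was also so for 41.2% of the single genes tested. For solvent, 5 root markers were called higher and 0 lower, beside 12% higher and 9.5% lower over all genes. The 14 root markers there summed to 176.7 to 204.1 RPKM at 4 h and 128.7 to 168.1 RPKM at 2 h, again without overlap. No shoot marker was called in solvent, where the 12 summed to 202.8 to 219.2 RPKM at 4 h and 208.2 to 227.1 RPKM at 2 h. The part of these markers in the changes above was not tested.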

How the data were processed

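RNA-seq of whole seedlings was deposited as 1 table of RPKM, which the authors computed per gene. Per the submitters' processing notes, the tools were STAR, featureCounts and DESeq and the build was TAIR10; the sources used here give no versions, strand setting or handling of multiply mapped reads. An entry with no name was left out, which kept 32678 genes. All 347846 values above 0 gave whole reads, within 0.02 reads, at 1 length per gene and 1 total per library, and these totals are the depths; altering the totals left 0 of 1000 genes whole. The floor of 3 reads in 1 kb lay at 0.08 to 0.123 RPKM, for counting error only. Of the IDs, 31912 were in the RefSeq annotation of TAIR10.1, which gave names and promoters.

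Genes with at least 1 RPKM in 3 of the 6 treated libraries were tested with limma 3.58.1 in R 4.3.3 on log2(RPKM + 1), in 1 fit of all 15 libraries by their 5 groups with a variance trend. Contrasts were 4 h minus 2 h with GR24 4DO, the same in solvent, and their difference. Benjamini-Hochberg adjusted p under 0.05 over all 18834 genes counted as called. The fit was also run on simulated data with independent libraries and the same dispersion for every gene. That run cannot give the error rate in these data, whose replicate pairs differ in closeness.

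The comparison, the gene lists and the rule for naming genes were chosen with earlier results of these data known. Genes named were all those called with GR24 4DO in the strigolactone and karrikin lists. To these came, per list, up to 4 called members with the smallest adjusted p. The 10 largest rises and 10 largest falls among called genes that reached 5 RPKM and did not overlap were also named. So were, only among genes called with GR24 4DO, those with the 6 smallest adjusted p of the difference in each direction. Uncalled members of the first 2 lists are given by values. DLK2, CYP81D11, OPR1 and GSTU24, and list members named beyond this rule, were chosen after their values were seen.

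Alternatives were other scalings, filters and pseudocounts, no variance trend, only the groups compared, the replicate number as a block, gene length trends removed, limma-voom on the recovered reads, near-identical pairs averaged, a minimum change of 2-fold, and each of 12 libraries left out. The replicate numbers were not taken to pair the samples.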

Additional observations from a re-analysis of the deposited data

Results flagged for a closer look

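For 36 of the named genes the change from 2 to 4 h with GR24 4DO differed from that in solvent by limma's test of the difference, at an adjusted p under 0.05. Values are log2 differences of the 2 changes, GR24 4DO minus solvent, with 3 libraries in each of the 4 groups. Among detoxification and electrophile-response genes these were 1.33 for CYP81D11, 0.84 for OPR1, 0.84 for UGT73B2, 0.79 for CYP81D8, 0.71 for UGT73B1 and 0.61 for GSTU24, a glutathione S-transferase gene. Among carbon, nitrogen and sulfur genes they were 0.73 for SIP2, 0.75 for BXL1, 0.77 for CP12-2, 0.62 for BT2, 0.71 for NRT2.1 and 1.01 for LSU1.

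DLK2 stood at 0.88, AGP13 at 0.96, GRXC9 at 1.05, DOX1 at 0.70, LOX4 at 0.56, RVE2 at 0.62, LHCB2.3 at 0.62 and the small heat shock gene AT1G07400 at 0.50. The more negative differences were -1.26 for SAD6, -1.08 for AT2G43620, -0.99 for AT5G39580, -0.85 for AT1G80130, -0.82 for ADH1, -0.82 for ARGOS, -0.80 for RNS1, -0.79 for ST2A and -0.77 for AT1G49570. They were -0.73 for AHP4, -0.63 for AT2G36690, -0.62 for ARL, -0.60 for EXPA11, -0.52 for PR2, -0.47 for ETR2 and -0.47 for COR15A. Of the 36, 21 were called in each of the 25 alternatives that set no minimum change, and each of the other 15 was not called with the near-identical pairs averaged. Some of the 36 were picked for the smallest adjusted p of the difference or after their values were seen. How they held in refits of the same libraries, here and above, does not stand for all 329 differences called. With the pairs averaged, 29 and 22 genes were called over all genes. The groups hold 3 libraries each, so no group was searched for a single outlying library.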

How the results depend on the processing

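Of 131 gene calls named for the change from 2 to 4 h with GR24 4DO, 115 were called in each of the 24 or 25 alternatives that tested them and set no minimum change, 16 were not called in at least 1, and 0 changed direction in any. The 16 were SMAX1, ERF109, ERF5, ARR6, ARR9, GID1C, IPS1, LSU2, BCAT4, CYCB2;3, CYCD3;1, APUM24, HDT2, WOX5, UGT73B2 and UGT73B1. Most of the 131 were picked for a small adjusted p or a large difference, so they do not stand for all calls. Of all 3585 calls, 56.1% were kept with the pairs averaged, and 60.1% to 79.9% when 1 treated library was left out. With near-identical pairs averaged, 880 genes were higher and 1132 lower with GR24 4DO, 961 and 761 in solvent, and the difference was called for 29 and 22; fewer samples enter that fit. With a minimum change of 2-fold the counts were 27 and 65, 23 and 77, and 4 and 9. Leaving out each library in turn gave 1003 to 1837 genes higher and 1214 to 2260 lower with GR24 4DO, 1472 to 2238 and 1088 to 1854 in solvent, and 117 to 189 and 82 to 145 for the difference.

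Same-numbered libraries of 4 h and 2 h had residual correlations of -0.154, 0.457 and 0.093 with GR24 4DO and of -0.164, -0.109 and 0.173 in solvent, so the numbers were not taken as a pairing. A replicate block in the fit of all 15 libraries gave 1979 genes higher and 2999 lower with GR24 4DO, and 233 with a more negative change than in solvent. With the block in the groups compared alone, the counts were 2238 and 2894 with GR24 4DO, 1461 higher in solvent and 240 with a more negative difference, and with the block and gene length trends removed 296 and 287 differences were called; the cause was not tested. Of all GR24 4DO calls 42.9% were higher, 50.8% after quantile normalization and 51% after median-of-ratios scaling. In the cytokinin, touch, gibberellin, glucosinolate, cell cycle and ribosome lists, counts of 1 to 3 genes dropped by 1 or 2 without single libraries. The log2 difference moved by over 1.5 times with a pseudocount of 0.1 RPKM for GOLS3, NAS2, SDI1, WOX5 and ERF109, and with limma-voom for these and for LNK2 and CIPK20; the cause was not tested.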

Other observations

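Nutrient transcripts moved in both directions from 2 to 4 h with GR24 4DO. The shares called were 40% for nitrate, 60% for phosphate, 40.9% for iron and 44.4% for sulfur genes, beside 19% over all genes. In solvent 6 nitrate, 5 phosphate, 3 iron and 2 sulfur genes rose, and 5, 1, 4 and 1 fell. With GR24 4DO, 5 of 20 nitrate genes tested rose and 3 fell, the same counts as with the near-identical pairs averaged. NRT2.1, a high-affinity nitrate transporter gene, had 120.2, 117 and 126 RPKM at 4 h, against 82.8, 68.6 and 73.8 RPKM at 2 h with GR24 4DO (0.69, limma adjusted p = 1.74e-05), and 74.5 ± 8.95 RPKM at 4 h and 75.4 ± 1.5 RPKM at 2 h in solvent. NIA2, which encodes nitrate reductase, rose by 0.64, while the transporter gene NRT1.5 and the kinase gene CIPK23 changed by -0.39 and -0.51. Of 15 phosphate genes, 5 rose and 4 fell, and 3 and 0 with the pairs averaged; without single treated libraries 3 to 5 rose and 1 to 4 fell. SQD1 and SQD2, whose enzymes make sulfolipid, rose by 0.38 and 0.31 and the phosphatase gene PAP17 by 0.46, whereas the fall of the non-coding IPS1 (-0.55) was not called with the pairs averaged (0.053).

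Of 22 iron genes, 4 rose and 5 fell (3 and 4 with the pairs averaged), and 2 rose without replicate 3 of GR24 4DO at 2 h. NAS1, whose enzyme makes the metal chelator nicotianamine, rose to 62.2 ± 2.42 RPKM at 4 h, against 37.1 ± 0.575 RPKM at 2 h (0.73), and NAS2 by 0.64; BTS, an iron-sensing ligase gene, and AT3G13610 changed by -0.52 and -0.58. Of 9 sulfur genes, 3 rose and 1 fell (2 and 1 with the pairs averaged). LSU1, a gene of low sulfur, rose to 7.28, 7.56 and 8.56 RPKM at 4 h, against 3.51, 3.72 and 3.01 RPKM at 2 h (0.996), SDI1 rose by 0.44, and the sulfate transporter gene SULTR1;2 fell to 63.1 ± 1.67 RPKM at 4 h, against 119 ± 6.47 RPKM at 2 h (-0.90). LSU2 rose by 0.37, a call lost with the pairs averaged (0.0927).

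Heat shock genes rose in 5 of 17 and fell in 1 (3 and 1 with the pairs averaged), with HSP17.4A (0.58), HSP23.6 (0.57) and AT1G07400 (0.27) higher and HSP90.1 (-0.63) lower. Of the 17, 35.3% were called, beside 19% over all genes. In solvent 1 of them rose and 5 fell. The difference between the changes was called for AT1G07400 alone (0.50, limma adjusted p = 0.00378), and not with the pairs averaged (0.0884). With GR24 4DO, aliphatic glucosinolate synthesis had 2 of 7 higher, CYP83A1 (0.33) and BCAT4 (0.17), the second not with the pairs averaged (0.148). Of the 7, 28.6% were called, and in solvent 3 rose and 0 fell. Of 36 cell cycle genes 1 rose and 3 fell with GR24 4DO, 11.1% called beside 19% over all genes. CDC20.1 and CYCB1;2 changed by -0.43 and -0.40, and the calls of CYCB2;3 (-0.32) and CYCD3;1 (0.23) were lost with the pairs averaged (0.0755 and 0.134). Of 9 ribosome biogenesis genes 1 rose and 1 fell, HDT2 (0.17) and APUM24 (-0.23), neither with the pairs averaged (0.147 and 0.103). The share called, 22.2%, was near the 19% over all genes.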
